A study of Mus musculus with 7 samples.

Results

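Crosslinks of DENR to the 3′ domain of 18S ribosomal RNA (rRNA) were examined nucleotide by nucleotide. The domain was taken as everything 3′ of nucleotide 1200 in the 1849-nt 18S copy assembled on the plus strand of chromosome 17 (mm10, chr17:39847553-39848201). Numbering starts with 1 at the first nucleotide of the copy, and every plus-strand crosslink site listed there in any library was included. The lists held 335 such positions, of 878 on the whole 18S copy and 23288 in the whole series. The domain therefore had a listed site at 335 of its 649 nucleotides. Position alone chose the sites, and neither their scores nor the groups were used.

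The libraries came from NIH3T3 cells, a mouse fibroblast line, by individual nucleotide resolution crosslinking and immunoprecipitation (iCLIP), in which UV light (254 nm, 150 mJ/cm2) ties a protein to RNA and the stop of reverse transcription marks the contacted nucleotide. Of the 7 libraries, 3 were made with anti-DENR antibody after transient transfection of a FLAG-Venus-tagged Denr (DENR overexpressing), 2 with the same antibody from cells that received no plasmid and so hold endogenous DENR only (non-transfected), and 2 with IgG as the control. More dishes of cells went into a non-transfected than into an overexpressing experiment, so the input was unequal. The labels do not say whether replicates were separate cultures, and p-values therefore measure the spread between libraries only, which may be technical.

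The 3′ domain of 18S rRNA folds into the head of the small ribosomal subunit (3′ major domain) and into helices 44 and 45 (3′ minor domain). The head and the top of helix 44 line the channel in which the start codon and the initiator tRNA meet. DENR acts with its partner MCTS1 on small subunits that have finished a reading frame and promotes reinitiation downstream of upstream open reading frames. Its SUI1 domain has the fold of the initiation factor eIF1, which binds beside the P site.

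On the annotation (GENCODE M21) the domain lies in the exon of the lincRNA gene Gm42418 on the plus strand. The rRNA gene CT010467.1 and, as far as 39848035, the lincRNA gene AY036118 are annotated on the minus strand of the same region. All listed 18S sites were on the plus strand, with 0 on the minus strand in each of the 7 libraries.

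The listed positions fell into 9 stretches separated by at least 10 nucleotides without a site in any library, a rule chosen after the values were seen. A window of 29 nt is printed for each stretch, and it holds the nucleotide with the highest mean share of score in that stretch. The windows of stretches 1, 7 and 9 reach past an end of their stretch, and that of stretch 1 begins before the domain, at nucleotide 1187. In the windows of stretches 2, 4, 6 and 8, capitals mark nucleotides listed in all 5 DENR libraries (overexpressing and non-transfected). The window of stretch 6 holds 18 of its 24 such nucleotides and leaves out nucleotide 1495, which is named below. In the other windows the capital marks the leading nucleotide, the one with the highest mean share of score. The letters are those of the genomic plus strand, 5′ to 3′, so T stands for U.
Stretch 1 (chr17:39847539-39847567): caaagctgaaacttAaaggaattgacgga
Stretch 2 (chr17:39847593-39847621): cggcTtAATTtgAcTCAACAcgggaaacc
Stretch 3 (chr17:39847652-39847680): agattgatagctctTtctcgattccgtgg
Stretch 4 (chr17:39847727-39847755): taattccgataacGAAcGAGaCTCtggca
Stretch 5 (chr17:39847788-39847816): gcgtcccccaacttCttagagggacaagt
Stretch 6 (chr17:39847852-39847880): ctGtGATGCCCTTAGATGTCcgggGctgc
Stretch 7 (chr17:39847913-39847941): ctaccctacgccggCaggcgcgggtaacc
Stretch 8 (chr17:39847978-39848006): aattattccccatgaAcgaggaattccca
Stretch 9 (chr17:39848085-39848113): ggtttagtgaggccCacggccctggtgga

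First, it was asked how much of the 18S signal lay in the 3′ domain. The DENR overexpressing libraries listed 69, 286 and 207 sites there (replicates 1 to 3) and the non-transfected libraries listed 85 and 273. These made up 16.6%, 36.9% and 32.8% of all 18S sites after overexpression and 23.9% and 36.3% without transfection. The exact 95% intervals (Clopper-Pearson, counting error only) ran from 13.1 to 20.5% in overexpressing replicate 1 and from 33.5 to 40.4% in replicate 2, and so did not overlap. They treat each site as an independent draw, whereas the domain sites formed runs of up to 48 adjacent nucleotides, so the intervals may be too narrow. The IgG libraries listed 0 of 5 and 3 of 23 18S sites in the domain, the latter 13.0% (2.78 to 33.6%). With only 5 sites in IgG replicate 1, a share of up to 52.2% was compatible with the count of 0.

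The score is the height that the authors' caller gave each site, a whole number that is not scaled to library size. Summed over the domain, it was 498, 10301 and 4621 with overexpression, 413 and 5482 without transfection and 0 and 3 with IgG. The domain held 8.06%, 31.2% and 21.8% of the 18S score with overexpression, compared with 16.2% and 26.6% for endogenous DENR. In IgG it held 0% and 4.11%. Among the 5 DENR libraries, overexpressing replicate 1 and non-transfected replicate 1 had the lowest shares, and the overexpressing and non-transfected groups overlapped.

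**Figure D1:**
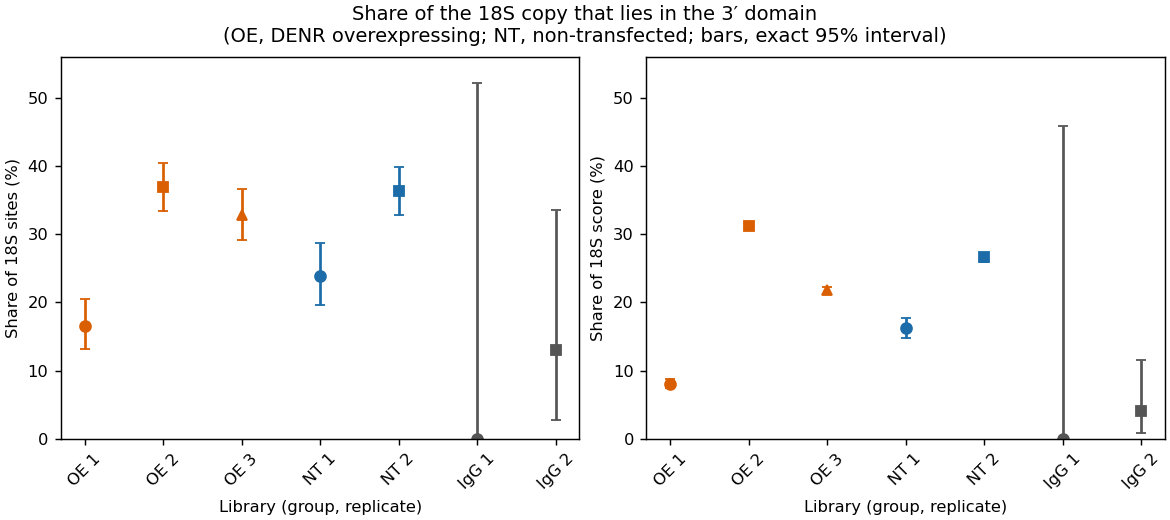
Share of the listed 18S sites (left, %) and of the 18S score (right, %) that lies in the 3′ domain, for each library. Points are libraries and bars are exact 95% intervals that cover counting error only and treat sites, or units of score, as independent. The overexpressing libraries (OE, 16.6 to 36.9% of sites) and the non-transfected libraries (NT, 23.9 and 36.3%) overlap, and the IgG intervals are wide.

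The overexpressing libraries averaged 28.8% ± 10.7 of 18S sites (SD, n = 3) and the non-transfected libraries 30.1% ± 8.74 (SD, n = 2), and the first minus the second was -1.36 percentage points (p = 1 and adjusted p = 1 by a two-sided exact permutation test). For the share of score the means were 20.3% ± 11.6 and 21.4% ± 7.33, a difference of -1.10 percentage points (exact permutation p = 1, adjusted p = 1). With 3 against 2 libraries the smallest possible p is 0.2. Both differences changed sign without overexpressing replicate 1 (4.73 and 5.04 percentage points) and without non-transfected replicate 2 (4.82 and 4.09). That of sites also turned with a minimum score of 5 (0.731) and with the domain starting 50 nt further downstream (0.361).

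The 5 DENR libraries together averaged 29.3% ± 8.80 of 18S sites and 20.8% ± 9.01 of 18S score in the domain (SD, n = 5). Their mean share exceeded that of IgG by 22.8 percentage points for sites and by 18.7 for score. Each of the 5 DENR libraries was above both IgG libraries for sites and for score (exact permutation p = 0.0952 for each, the smallest that 5 against 2 libraries allow; Benjamini-Hochberg adjusted p = 0.219 over 7 tests).

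Low shares went with a low listed score, although the order among the low and among the high shares did not follow it. The DENR libraries with the lowest domain shares were also those with the lowest listed score over the whole list, 24463 in overexpressing replicate 1 and 16429 in non-transfected replicate 1, against 68338 to 155677 in the other 3 DENR libraries. With every DENR list cut to its 4012 highest sites, the shares of 18S sites were 16.6%, 35.6% and 32.6% with overexpression and 23.9% and 36.5% without transfection. This cut left overexpressing replicate 1 as it was and did not equalise the listed score, and the part of list size and depth in these shares was not tested.

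Second, the domain was set against nucleotides 1 to 1200 of the same copy. It held 10.6, 44.1 and 31.9 sites per 100 nt with overexpression and 13.1 and 42.1 without transfection. The remainder of the copy held 28.9, 40.8, 35.3, 22.5 and 39.9 sites per 100 nt in the same order. The domain was thus less dense than the remainder in 3 libraries and denser in overexpressing replicate 2 and non-transfected replicate 2. The mean difference of -5.13 sites per 100 nt (28.4 against 33.5) did not exceed the spread between libraries (exact sign-flip permutation test over 5 libraries, p = 0.3125, adjusted p = 0.4375), and its sign turned when sites within 15 nt were merged (0.0371 sites per 100 nt).

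The score per site was lower in the domain than before it in each of the 5 DENR libraries, although the adjusted p did not pass 0.05. The score per site was 7.22, 36.0 and 22.3 in the domain of the overexpressing libraries and 4.86 and 20.1 in that of the non-transfected libraries. Up to nucleotide 1200 it was 16.4, 46.6, 39.2, 7.89 and 31.6. The difference was -0.74 on the log2 scale and had the same sign in 5 of 5 libraries (exact sign-flip permutation p = 0.0625, the smallest that 5 libraries allow, adjusted p = 0.219).

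The border after nucleotide 1200 does not coincide with a break in the sites. At nucleotide 1200, just outside, the scores were 90 and 11 in overexpressing replicates 2 and 3 and 5 and 27 without transfection. At the next nucleotide, the first inside, they were 128 and 31, and 13 and 47. Overexpressing replicate 1 listed neither nucleotide.

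Next, the recurrence of positions was counted. Of the 335 positions, 46 (13.7%) were listed in all 5 DENR libraries, where 8.27% of all 23263 positions of the DENR lists were. The count was 15 among sites with a score of at least 5 and 74 without overexpressing replicate 1, the list with the fewest domain sites. In nucleotides 1 to 1200 the count was 207 of 543 (38.1%). Another 74 domain positions (22.1%) were listed in 1 DENR library only, against 65.4% of all positions, and 77, 90 and 48 positions were listed in 2, 3 and 4 libraries. The most frequent combination was overexpressing replicates 2 and 3 with non-transfected replicate 2, which shared 83 positions absent from the 2 shorter lists. For a pair of DENR libraries, 91.0% ± 7.87 of the domain sites of the shorter list were at the identical nucleotide in the longer one (10 pairs, range 72.5 to 98.6%), which was 44.9% ± 21.2 of the longer list. Across shared positions of a pair, Spearman's rho of the scores averaged 0.741 ± 0.0937 (range 0.609 to 0.912, a description across positions of the same rRNA, which are not replicates).

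The 46 positions listed in all 5 DENR libraries were not spread evenly along the domain. Stretch 2 held 12 of them, stretch 4 held 9 and stretch 6 held 24, and the last was nucleotide 1641 in stretch 8. They formed 13 runs of adjacent nucleotides, the longest of which covered 16 nt from 1504 to 1519. Stretches 2, 4 and 6 together, 148 nt long, held 90.4%, 52.4% and 53.6% of the domain score with overexpression and 82.8% and 56.3% without transfection. These shares were highest in the 2 libraries with the lowest listed score. The stretches were picked for positions that these 2 libraries also list, so this order follows in part from the choice and is not a separate result.

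**Figure D2:**
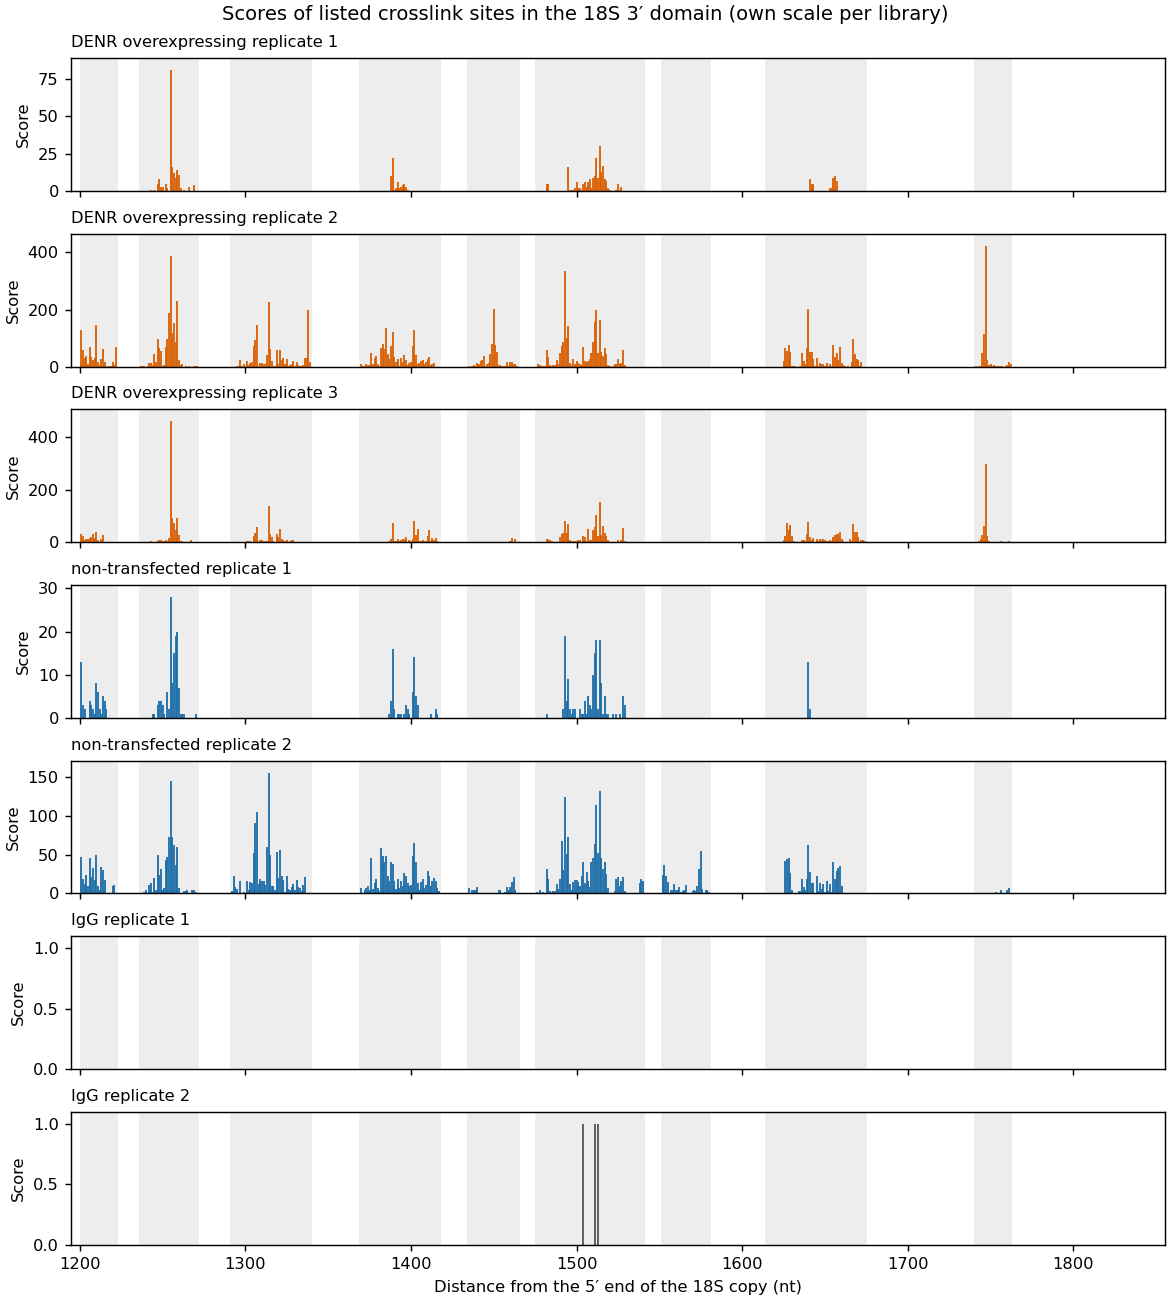
Score of each listed site (vertical lines, whole numbers on a scale of its own for each library) against distance from the 5′ end of the 18S copy (nt), one panel per library, with the 9 stretches shaded. The 5 DENR libraries share the peaks at nucleotides 1255 and 1514, the peak at 1747 is seen in overexpressing replicates 2 and 3, and the IgG panels hold 0 and 3 sites.

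The position with the best mean rank was nucleotide 1255, a uridine (chr17:39847607-39847607, the last letter of the motif TTTGACT, found once on the plus strand). This uridine sits in the loop of helix 31, which touches the P-site tRNA, and in mature mammalian rRNA it carries a hypermodified base of a kind that halts reverse transcriptase. Its score was 81, 387 and 459 with overexpression, 28 and 144 without transfection, and it was listed in neither IgG library. It ranked 28, 31 and 11 in the whole lists of the overexpressing libraries and 56 and 35 in those of the non-transfected libraries. It was the highest domain position in overexpressing replicates 1 and 3 and in non-transfected replicate 1, where it held 16.3%, 9.93% and 6.78% of the domain score. The part of the modification in this score was not tested.

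As a share of the whole listed score, nucleotide 1255 held 0.331%, 0.249% and 0.490% with overexpression and 0.170% and 0.211% without transfection, with a mean of 0.290% ± 0.127 (SD, n = 5). The lowest overexpressing value lay above the highest non-transfected value. It was the only domain position with this order, 1 of 335 (0.299%), where 1.99% of all positions had it. An unlisted site counted as having no score, so only positions listed in every overexpressing library could show this order. As a share of the domain score the values of nucleotide 1255 overlapped between the groups (16.3%, 3.76% and 9.93% against 6.78% and 2.63%). The nucleotides on its 3′ side were also recurrent. Nucleotide 1256 scored 16, 118 and 94 with overexpression and 8 and 72 without transfection, and nucleotide 1259 scored 14, 229 and 91, and 20 and 59. Nucleotide 1257 scored 12, 153 and 75, and 15 and 62, and nucleotide 1258 scored 9, 86 and 46, and 19 and 37. Nucleotide 1255 was 1.97 to 5.06 times as high as the higher of its 2 neighbours.

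Stretch 6 (nucleotides 1476 to 1540) carried 6 of the 12 best-ranked recurrent positions, stretch 2 carried 5 and stretch 4 carried 1. Of these, the one with the best mean rank in stretch 6 was nucleotide 1514, a guanosine, with scores of 30, 164 and 153 with overexpression and 18 and 131 without transfection. Nucleotide 1512, a uridine, scored 22, 198 and 104, and 18 and 114. Both kept an overlapping range between the groups, and their shares of the listed score averaged 0.139% ± 0.0376 and 0.121% ± 0.0289 (SD, n = 5). Nucleotide 1495, a cytidine, scored 16, 141 and 68, and 9 and 73.

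Next by mean rank in the same stretch came nucleotides 1511 (10, 156 and 59 against 15 and 64), 1510 (9, 87 and 46 against 10 and 46) and 1515 (13, 52 and 27 against 8 and 46). Stretch 6 was also the only place with control sites: IgG replicate 2 listed nucleotides 1504, 1511 and 1513 with a score of 1 each. This gave 3 of 335 domain positions in an IgG library (0.896%), where 0.95% of all positions were. At nucleotide 1504 the DENR libraries scored 5, 70 and 22, and 1 and 41, and at nucleotide 1513 they scored 9, 48 and 22, and 2 and 52. Nucleotide 1493, an adenosine listed in 4 of the 5 DENR libraries, was higher than any of these in overexpressing replicate 2 (335) and also had 80 in overexpressing replicate 3 and 19 and 124 in the non-transfected libraries, without being listed in overexpressing replicate 1 (named after its values were seen).

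**Figure D3:**
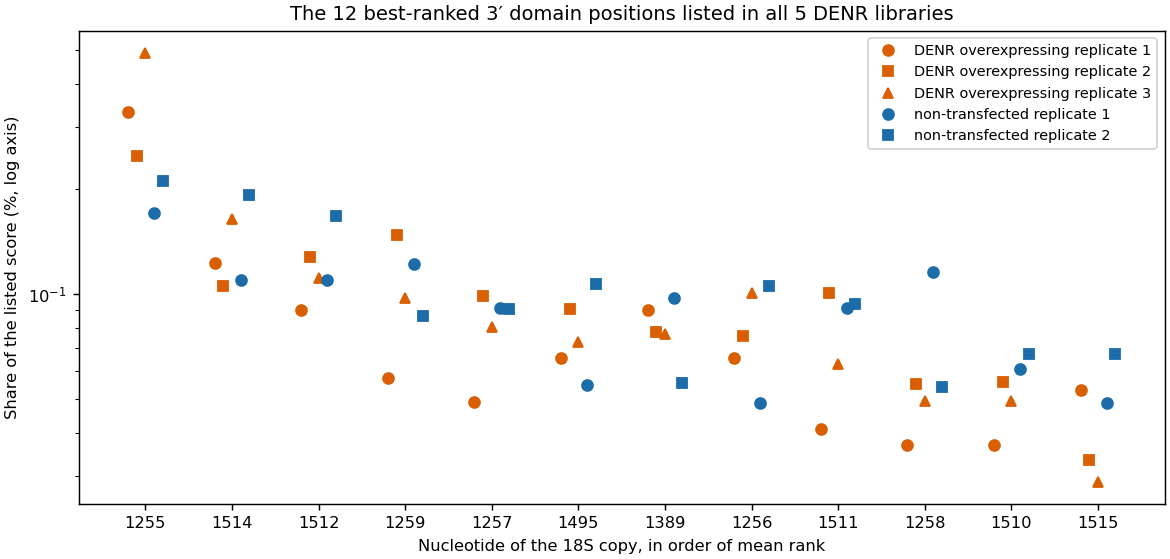
Share of the listed score (%, log axis) at the 12 domain positions with the best mean rank among those listed in all 5 DENR libraries, with 1 point per library, coloured by group and shaped by replicate. Nucleotide 1255 lies highest (0.170 to 0.490%) with its overexpressing points above its non-transfected points. Only nucleotide 1510 shows the opposite order, and the other 10 positions overlap.

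In the opposite direction, 17 of 335 positions (5.07%) held a larger share of the listed score in both non-transfected libraries than in any overexpressing library, where 1.73% of all positions did. An unlisted site counted as having no score, so this call needed a site in both non-transfected libraries. Positions listed in 1 DENR library only could not be called in either direction. They made up 65.4% of all positions, 22.1% of the domain and 13.6% of nucleotides 1 to 1200, so these percentages also depend on how often positions were listed. In nucleotides 1 to 1200, 21 positions (3.87%) were higher in the overexpressing and 40 (7.37%) in the non-transfected libraries. Of the 17, stretch 6 held 7, stretch 1 held 4, and stretches 2 and 4 held 3 each. Only 6 of the 17 were listed in all 5 DENR libraries, and the others were unlisted in at least 1 overexpressing library. In 13 of the 17, the score in non-transfected replicate 1 was 1 or 2. A score of 1 was worth 0.00609% of that list, which had the lowest listed score of the 5, and 0.000642% of the list of overexpressing replicate 2, and the part of this coarser unit in the count was not tested. The 2 positions with a score of at least 10 in non-transfected replicate 1 were nucleotide 1402 (129 and 79 in overexpressing replicates 2 and 3, not listed in replicate 1, against 14 and 65) and nucleotide 1510. The shares of the listed score at nucleotide 1402 were close, 0.0829% and 0.0844% in overexpressing replicates 2 and 3 against 0.0852% and 0.0951% without transfection.

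The 9 stretches differed in how they were shared between libraries. Stretch 6 held the largest mean part of the domain score, 29.99% ± 8.88 (SD, n = 5), followed by stretch 2 with 23.2% ± 9.76. In fixed bins of 50 nt, the highest mean shares were 21.1% ± 9.30 at nucleotides 1501 to 1550 and 20.5% ± 8.71 in the bin that ends at 1300. Stretch 4 (nucleotides 1370 to 1417) held 11.8%, 13.9% and 10.8% with overexpression and 15.7% and 17.1% without transfection, and the groups did not overlap (exact permutation p = 0.2, the smallest possible, adjusted p = 1 over the stretches). As a share of the 18S score the same stretch overlapped (0.955%, 4.33% and 2.35% against 2.56% and 4.56%), as did the domain share of the fixed bin at nucleotides 1351 to 1400 (11.8%, 9.80% and 3.87% against 7.99% and 10.8%). Its leading nucleotide, the adenosine 1389, scored 22, 121 and 72, and 16 and 38.

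Stretch 8 (nucleotides 1615 to 1674) held 9.64%, 13.1% and 19.1% with overexpression and 3.63% and 10.8% without transfection, which overlapped. Its leading nucleotide was the adenosine 1640, not listed in overexpressing replicate 1, with 203 and 78 in replicates 2 and 3 and 13 and 62 in the non-transfected libraries. Of 13 bins of 50 nt, the bin at nucleotides 1651 to 1700 was the only one whose groups did not overlap, at 6.02%, 5.15% and 8.59% of the domain score with overexpression and 0% and 3.59% without transfection (exact permutation p = 0.2, adjusted p = 1). This count of 1 bin became 3 without overexpressing replicate 1 or 2, 4 without non-transfected replicate 1 and 2 without non-transfected replicate 2, and it was 0 with bins of 100 nt.

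The other 5 stretches were missing from at least 1 DENR library. Stretch 1 (the first 22 nt of the domain, to nucleotide 1222) was listed in all but overexpressing replicate 1, with 21 and 14 sites in replicates 2 and 3 and 14 and 20 in the non-transfected libraries. Stretch 3 (nucleotides 1292 to 1339) had 45 and 27 sites in overexpressing replicates 2 and 3 and 44 in non-transfected replicate 2, and 0 in both libraries with a low listed score. Its leading uridine, nucleotide 1314, scored 228, 136 and 155 in those 3 libraries and was the highest domain position of non-transfected replicate 2. Stretch 5 (nucleotides 1435 to 1465) was listed in the same 3 libraries, with 29, 8 and 16 sites and a score of 203 at nucleotide 1450 in overexpressing replicate 2 alone. Stretch 7 (nucleotides 1552 to 1580) was listed in non-transfected replicate 2 only, with 26 sites, a summed score of 278 and 5.07% of the domain score.

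**Figure D4:**
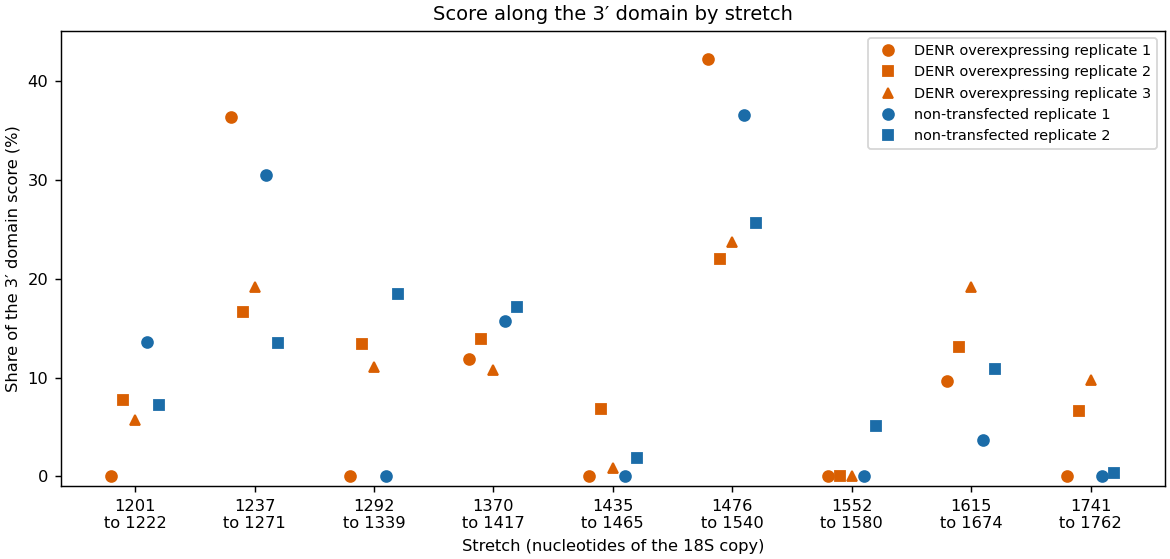
Share of the 3′ domain score (%) in each of the 9 stretches, with 1 point per DENR library, coloured by group and shaped by replicate. Stretches 2 (1237 to 1271) and 6 (1476 to 1540) are highest on average, at 13.5 to 36.3% and 21.9 to 42.2%, and stretches 3, 5, 7 and 9 are at 0 in at least 2 libraries.

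Stretch 9 (nucleotides 1741 to 1762) was the last before the 3′ end and lies between the start of the decoding region of helix 44 (nucleotide 1703) and the decoding adenines (1804 and 1805), that is, along helix 44. It had 20, 13 and 5 sites in overexpressing replicates 2 and 3 and non-transfected replicate 2, with summed scores of 682, 449 and 19, and 0 in the remaining libraries. Nucleotide 1747, a cytidine, scored 423 in overexpressing replicate 2, where it was the highest domain position (4.11% of the domain score), and 297 in replicate 3. It was not listed in overexpressing replicate 1 or in either non-transfected library. Along helix 44 the assembled copy is shorter than mature mouse 18S rRNA, which can affect where reads map. The part of this in the place and scores of stretch 9 was not tested.

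The landmarks of the 3′ minor domain, each located by a short motif found once on the plus strand, had no listed site. The start of the decoding region of helix 44 (motif CACACCG) was listed in none of the 7 libraries. The same held for the decoding adenines (motif AAGTCGT), which read the codon-anticodon pairing in the A site. It also held for the adenines of the helix 45 loop (1830 and 1831, motif GTGAACC), which are dimethylated in mature rRNA, and for the last nucleotides (1841 to 1849, motif GGATCAT at their start). Of the 335 positions, 315 lay before nucleotide 1703 and 20 from it onwards, and the final 87 nt (1763 to 1849) held 0 positions. Other empty parts were nucleotides 1675 to 1740 (66 nt), 1581 to 1614 (34 nt) and 1340 to 1369 (30 nt). A read starts at or just after the marked site and runs 3′, so near the 3′ end of mature 18S rRNA little sequence is left to map. A list holds only sites past the caller's threshold, and the assembled copy is shorter along helix 44 than mature mouse 18S rRNA, so an empty part says only that no site was listed there.

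Finally, the base at the sites was compared with the sequence of the domain, which is 22.7% A, 25.7% C, 29.4% G and 22.2% U. Uridine made up 23.3% of sites on average, 1.11 percentage points above its share of the sequence and above it in 4 of 5 libraries (exact sign-flip permutation p = 0.125, adjusted p = 0.219). The difference turned to -2.26 percentage points among sites with a score of at least 5. Adenosine made up 27.5%, 25.2% and 27.5% of sites with overexpression and 34.1% and 26.4% without transfection, above its share of the sequence in 5 of 5 (exact sign-flip permutation p = 0.0625, the smallest possible, adjusted p = 0.0833 over 8 comparisons of bases). Weighted by score, adenosine held 30.6% ± 6.78 and uridine 28.3% ± 4.99, each above the sequence in 5 of 5 libraries, and guanosine held 19.3% ± 3.45, below it in 5 of 5 (SD, n = 5, exact sign-flip permutation p = 0.0625 and adjusted p = 0.0833 for each). The uridine share rested on nucleotide 1255. Without that position, an alternative chosen after the values were seen, uridine held 20.4%, 21.8% and 25.9% of the score with overexpression and 16.6% and 25.8% without transfection, above the remaining sequence (22.1%) in 2 of 5 libraries (exact sign-flip permutation p = 1). Adenosine then held 33.2% ± 6.84 and stayed above the sequence in 5 of 5, and guanosine held 20.9% ± 3.69 and stayed below it in 5 of 5. The libraries list largely the same nucleotides of the same rRNA, so these tests cover the spread between libraries, not between positions. The sequence shares are those of all 649 nt, including the parts without a listed site.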

How the data were processed

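The lists of crosslink sites were made by the authors, who mapped the reads with Bowtie to mm10 (the submitters' notes list Bowtie2), then dropped PCR duplicates by molecular identifier and mapped start, and called sites in each library with the iCount peaks function. Each deposited site has a score, its height in whole numbers, negative on the minus strand and not scaled to library size. The headers in 6 of the 7 lists give 100 permutations, a 15 nt neighbourhood and FDR 0.05, and the remaining list has no such header. These headers give regions as separate, but the methods name an option that joins them. Depth per library is unknown, and listed sites ranged from 19 to 16137.

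Positions were converted to 1-based nucleotides of the 18S copy (39846353 to 39848201). Its sequence was taken from the GENCODE M21 transcripts, whose coordinates use the same build. Group means were compared by exact permutation tests (10 splits for 3 against 2 libraries, 21 for 5 against 2) and paired measures by exact sign-flip tests (32 patterns), two-sided, with Benjamini-Hochberg adjustment over 7 tests. The background for counts of positions was all 23263 positions of the 5 DENR lists. Named were the 12 recurrent positions of lowest mean rank, all IgG positions, the highest position per library, the leading bins and the landmarks, and other nucleotides were named after their values were seen. Members, lists and rules were chosen with earlier results of these data known. Alternatives were a minimum score of 5, lists of 4012 sites, merging within 15 nt, a start 50 nt further downstream, other bins and leaving out each library, and, added after the values were seen, base shares without nucleotide 1255. Functions were tested on simulated data. Python 3.11.15, numpy 2.4.6, pandas 2.3.3, scipy 1.17.1 and matplotlib 3.10.9 were used.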

Additional observations from a re-analysis of the deposited data

How the results depend on the processing

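Of 87 alternative values, 70 kept their direction and their side of the threshold (counts, their size within 1.5 times), 8 changed sign and 9 counts moved by over 1.5 times. The difference in the share of 18S sites (overexpressing minus non-transfected) was 0.731 percentage points with a minimum score of 5 and 0.361 with the domain starting 50 nt further downstream, and ran from -7.54 to 4.82 when single libraries were left out. That of the share of score ran from -6.51 to 5.04. The difference of DENR from IgG ran from 16.3 to 29.3 (sites) and 16.1 to 21.9 (score). The difference in density was 0.0371 sites per 100 nt after merging within 15 nt, and the uridine difference was -2.26 percentage points with a minimum score of 5. Weighted by score, the uridine difference was 6.09 percentage points with and 0.0444 without nucleotide 1255, although it is counted among the 70 that kept their direction. The positions in all 5 DENR libraries numbered 15 with a minimum score of 5, 76 when a site within 1 nt was accepted, and 46 to 74 without single libraries (74 without overexpressing replicate 1). The bins without overlap numbered 2 at 25 nt, 0 at 100 nt and 1 to 4 without single libraries. The cause of these changes was not tested.

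With the replicate number as a block, the differences were -3.38 (sites) and -1.82 (score) between overexpressing and non-transfected and 21.9 and 18.5 between DENR and IgG libraries (exact sign-flip test, smallest possible p 0.5). The labels do not tie equal numbers together, and same-numbered libraries correlated at 0.326, 0.613 and -0.159 over 37 bins, so they were not taken as pairs. The restriction to read windows that occur once in the assembly was not run. A minimum score of 5 left 1 IgG library with 18S sites. The thresholded lists limit every count of absent sites.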
